A study of Rattus norvegicus with 9 samples.

Results

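The 10 genes of MHC class II antigen presentation were described in the injured rat spinal cord. They were taken by symbol, and each of the 10 stood on 1 of the 30507 rows of the count table. RNA sequencing was performed on the T9-T11 spinal cord of female wild-type Sprague-Dawley rats at 35 days post-injury (dpi), with 3 rats in each of 3 groups. All rats were 8 weeks old when obtained, according to the methods of the study. The Sham group is labelled as untreated, while the methods describe a laminectomy without injury. The SCI group had a contusion at T10. The SCI + SCS group had the same contusion, an implanted epidural electrode and high-frequency spinal cord stimulation (HF-SCS) at 10 kHz for 2 h a day from 1 dpi. Rats of the SCI group carried a plug but no electrode, so electrode and stimulation cannot be told apart in a comparison of these groups. The samples were whole tissue, so fewer cells of a type and less RNA per cell cannot be told apart either.

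MHC class II molecules are pairs of an alpha and a beta chain that carry peptides from endocytosed proteins to the cell surface, where CD4 T cells read them. The invariant chain, Cd74, holds the peptide groove closed until proteases of the lysosome degrade it, after which the DM pair exchanges its last fragment for a peptide and the DO pair restrains DM. Ciita is the transactivator on which transcription of these genes depends. Ciita does not bind DNA itself and is held at the promoter by a complex of RFX, CREB and NF-Y proteins on the X and Y boxes. In the spinal cord, microglia, infiltrating macrophages and dendritic cells are the usual carriers of class II molecules.

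In the rat the MHC is named RT1. The RT1-D locus corresponds to human DR and the RT1-B locus to human DQ. In the deposited tables, whose build is mRatBN7.2, the 8 RT1 members lie on chromosome 20 between position 4512911 (RT1-Da) and position 4756577 (RT1-DOa). Cd74 lies on chromosome 18 (54256778 to 54266003, plus strand) and Ciita on chromosome 10 (5140178 to 5168808, minus strand). All 10 members are annotated as protein coding.

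Class II genes are known for an X and Y box module upstream of their start. It is shown because it is the part of the promoter that the Ciita complex holds. A promoter of 300 bases, from 250 bases before to 50 bases after the gene's start, was found in RefSeq (build GRCr8) for 8 of the 10 members. RT1-DMb and Ciita had no entry. The letters GATTGG, the core of the Y box, were present on the strand of the gene in 7 of the 8 promoters. In 5 of these, the letters GATG, the end of the X box, lay within 30 bases before the Y core, and the 10 bases ending there shared the pattern GNNACNGATG (N where they differed), 19 to 22 bases before the Y core. The windows below run 5′ to 3′ on the strand of the gene, from 45 bases before the Y core to 6 bases after it, with the X core (where found) and the Y core in capitals.
RT1-Da: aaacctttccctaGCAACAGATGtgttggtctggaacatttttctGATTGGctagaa
RT1-Db1: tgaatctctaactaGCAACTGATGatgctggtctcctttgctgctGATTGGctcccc
RT1-Ba: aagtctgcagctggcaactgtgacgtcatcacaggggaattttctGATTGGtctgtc
RT1-Bb: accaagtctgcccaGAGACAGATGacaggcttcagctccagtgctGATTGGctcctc
RT1-DMa: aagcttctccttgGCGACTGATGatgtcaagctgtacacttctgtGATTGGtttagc
RT1-DOa: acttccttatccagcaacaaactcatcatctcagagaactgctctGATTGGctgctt
RT1-DOb: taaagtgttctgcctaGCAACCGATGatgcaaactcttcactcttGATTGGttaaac

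These windows lie in GRCr8 at chr20:4515320-4515376 (RT1-Da, plus strand), chr20:4560232-4560288 (RT1-Db1, minus strand), chr20:4576968-4577024 (RT1-Ba, plus strand) and chr20:4604169-4604225 (RT1-Bb, minus strand). Those of the accessory genes, all on the minus strand, lie at chr20:4712389-4712445 (RT1-DMa), chr20:4758520-4758576 (RT1-DOa) and chr20:4627596-4627652 (RT1-DOb). The X core letters were not found in the promoters of RT1-Ba and RT1-DOa, and neither core was found on the strand of the gene in that of Cd74. Searched on both strands of all 33469 promoters, the X core was present in 2.84% and the Y core in 14.8%. Both cores in this order within 30 bases were present in 0.0239%, or 8 promoters. These 8 were the 5 members, the paralog RT1-Db2 and, on the opposite strand, Slc4a5 and Ttc29, 2 genes named here because they completed the count. The X pattern was read from the promoters of the members, so the match is a description of these letters and not of binding.

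The libraries held between 62844376 and 88358570 counts on genes. Levels are given as counts per 1000000 (CPM) scaled by the trimmed mean of M-values (TMM). At this depth 3 counts, used as the floor, corresponded to 0.034 to 0.0477 CPM. Every member was above this floor in all 9 libraries. Several libraries stood apart from their groups. SCI 1 and SCI 3 held RNA of skeletal muscle, whose markers summed to 3842 and 1162 CPM there, against 17.9 CPM in SCI 2 and 21.7 to 73.3 CPM in the Sham and SCI + SCS libraries. Sham 1 had the highest summed level of neuron markers (8548 CPM, against 3901 to 5379 CPM in the other Sham libraries) and the lowest level of all 10 members. Oligodendrocyte markers, which define the labelled tissue, summed to between 16267 and 79457 CPM and were present in every library.

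The genes that form the class II molecule and its chaperone were higher in every SCI library than in every Sham library, and varied widely among the Sham rats. Cd74 was at 24.1, 129 and 300 CPM in Sham libraries 1 to 3, at 519, 756 and 368 CPM in the SCI group and at 196, 184 and 306 CPM in the SCI + SCS group. The SCI libraries were the 3 highest, whereas the Sham and SCI + SCS libraries overlapped. RT1-Da, the alpha chain of the RT1-D molecule, was at 3.55, 30.2 and 68.6 CPM in the Sham group, at 111, 183 and 84.3 CPM in the SCI group and at 44.6, 37.7 and 66.0 CPM in the SCI + SCS group. Its libraries fell in the same arrangement as those of Cd74. RT1-Db1, the beta chain that pairs with it, was at 3.29, 10.5 and 31.0 CPM, at 59.3, 73.2 and 39.3 CPM and at 20.1, 16.6 and 32.3 CPM in these groups. Here too the SCI libraries were above the others and SCI + SCS 3 was close to Sham 3.

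RT1-Ba, the alpha chain of the RT1-B molecule, was at 2.74, 12.4 and 16.7 CPM in the Sham group, at 37.8, 58.5 and 29.0 CPM in the SCI group and at 17.9, 17.8 and 22.2 CPM in the SCI + SCS group. The 3 groups did not overlap, with the SCI + SCS group in between. RT1-Bb, its beta chain, was at 2.23, 13.6 and 11.2 CPM, at 51.7, 29.4 and 38.8 CPM and at 20.4, 23.5 and 29.8 CPM. SCI 2 was the lowest SCI library for RT1-Bb and lay just below SCI + SCS 3, although it was the highest SCI library for RT1-Ba, RT1-Da and Cd74.

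The DM pair, which loads peptide, varied much less among the Sham rats and stayed near the SCI level in stimulated rats. RT1-DMa was at 20.3, 25.7 and 29.4 CPM in the Sham group, at 94.5, 86.0 and 69.9 CPM in the SCI group and at 64.5, 71.6 and 66.0 CPM in the SCI + SCS group. RT1-DMb was at 14.6, 25.2 and 35.0 CPM, at 96.9, 107 and 81.9 CPM and at 76.9, 99.7 and 69.5 CPM. Both injured groups were above Sham for both genes, and they overlapped each other. The highest Sham library was 1.45-fold above the lowest for RT1-DMa and 2.40-fold for RT1-DMb. The same ratio was 19.3 for RT1-Da, 12.4 for Cd74, 9.43 for RT1-Db1, 7.17 for Ciita, 6.11 for RT1-Bb and 6.10 for RT1-Ba, and it was 3.15 for RT1-DOb and 1.52 for RT1-DOa. Within the SCI group no member varied by more than 2.39-fold, and within the SCI + SCS group none by more than 2.5-fold.

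The DO pair, the modulator of DM, and the transactivator Ciita were expressed at low levels. RT1-DOa was at 0.189, 0.261 and 0.286 CPM in the Sham group, at 1.02, 1.76 and 0.737 CPM in the SCI group and at 0.603, 0.312 and 0.721 CPM in the SCI + SCS group, and the 3 groups did not overlap. RT1-DOb was at 0.173, 0.545 and 0.389 CPM, at 1.04, 1.49 and 0.795 CPM and at 0.912, 1.73 and 0.893 CPM. Its SCI and SCI + SCS libraries overlapped and were above Sham. Ciita was at 0.220, 0.681 and 1.58 CPM in the Sham group, at 2.84, 4.16 and 2.31 CPM in the SCI group and at 1.11, 0.808 and 2.02 CPM in the SCI + SCS group. The order of its libraries resembled that of Cd74 and RT1-Da, with Sham and SCI + SCS overlapping. The lowest count behind these values was 11, for RT1-DOb in Sham 1.

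**Figure D1:**
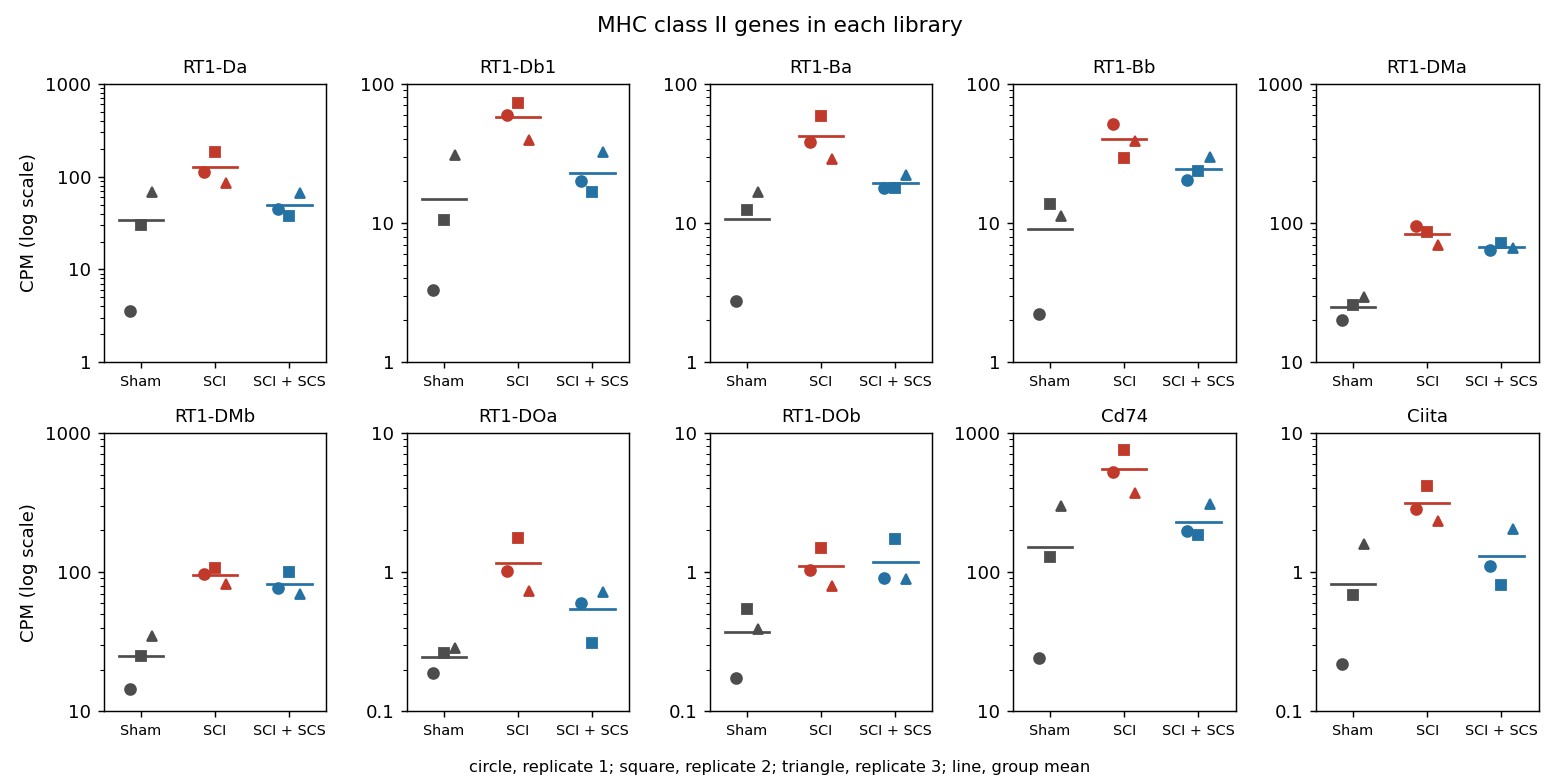
Level of each of the 10 members in the 9 libraries, in TMM-scaled CPM on a log axis with its own range in each panel. Points are single rats and lines are group means; the SCI libraries are above the Sham libraries in all 10 panels, and Sham 1 is the lowest library throughout.

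The members were ordered by level on FPKM, which divides by gene length. In the SCI group the order was Cd74 at 317 ± 125, RT1-Da at 85.2 ± 38.3, RT1-DMb at 59.0 ± 9.27, RT1-DMa at 58.1 ± 5.42, RT1-Ba at 29.5 ± 11.9, RT1-Db1 at 16.4 ± 15.4 and RT1-Bb at 11.8 ± 3.55 FPKM (mean ± SD, n = 3). RT1-DOa at 0.806 ± 0.401, RT1-DOb at 0.603 ± 0.202 and Ciita at 0.366 ± 0.128 FPKM followed. RT1-DMb and RT1-DMa did not differ beyond their spread, and neither did RT1-Db1 and RT1-Bb or RT1-DOa and RT1-DOb. In the SCI + SCS group, RT1-Da at 33.8 ± 10.4 FPKM was below RT1-DMb at 52.3 ± 9.86 and RT1-DMa at 49.8 ± 2.47 FPKM. In the Sham group, RT1-Da at 19.9 ± 17.3, RT1-DMa at 18.1 ± 3.26 and RT1-DMb at 15.5 ± 6.45 FPKM overlapped. FPKM of RT1-Db1, RT1-Bb and RT1-DOb did not track their counts across libraries, so their place in this order is uncertain. For these 3 genes the FPKM obtained per CPM differed 3.98-fold, 2-fold and 2.46-fold between libraries, against a median of 1.04-fold over 12910 well-counted genes.

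The comparison of SCI with Sham asks which members differ in the injured cord. In this comparison 26.9% of the 17822 genes tested were called, 13.4% of them as higher in the SCI group, where a call needed |log2FC|>1 and an adjusted p under 0.05 (edgeR, quasi-likelihood test, p-values adjusted after Benjamini and Hochberg). Of the 10 members, 6 were called and all 6 rose. The DM pair rose with the smallest error. RT1-DMa rose 3.29-fold (log2FC 1.72, SE 0.18, edgeR adjusted p = 0.00143) and RT1-DMb rose 3.78-fold (log2FC 1.92, SE 0.31, edgeR adjusted p = 0.00382). RT1-DOa rose 4.67-fold (edgeR adjusted p = 0.00747), and RT1-DOb rose 2.94-fold (edgeR adjusted p = 0.0378). The RT1-B chains rose by 3.89-fold for RT1-Ba (edgeR adjusted p = 0.0382) and 4.38-fold for RT1-Bb (edgeR adjusted p = 0.0274).

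The remaining 4 members had log2FC of similar size but larger errors and were not called by edgeR. RT1-Da differed by a log2FC of 1.88 (SE 0.90, edgeR adjusted p = 0.126), RT1-Db1 by 1.93 (SE 0.74, edgeR adjusted p = 0.068), Cd74 by 1.85 (SE 0.80, edgeR adjusted p = 0.0966) and Ciita by 1.88 (SE 0.66, edgeR adjusted p = 0.0517). All 10 members were higher in each SCI library than in each Sham library, as were 32.6% of all genes tested. DESeq2 called 9 members as higher, RT1-Db1, Cd74 and Ciita among them but not RT1-Da (DESeq2 adjusted p = 0.122), against 12% of the genes it tested. Limma called 9 on log2(FPKM + 0.1), all but RT1-Db1, against 13.4%, and 6 on log2(FPKM + 1), against 7.92%. The median log2FC of the members was 1.90, against 0.02 over all genes tested. Without Sham 3 these 4 members were called, beside 14.2% of all genes as higher, with log2FC of 2.88 for RT1-Da, 3.03 for RT1-Db1, 2.82 for Cd74 and 2.74 for Ciita, and RT1-Bb and RT1-DOb were not. Without SCI 1 or without SCI 3, 3 members were called (RT1-DMa, RT1-DMb and RT1-DOa), against 12% and 10.2% of all genes as higher. Without both of these libraries, which held muscle RNA, 1 member was called (RT1-DMa, log2FC 1.76), against 2.33%.

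**Figure D2:**
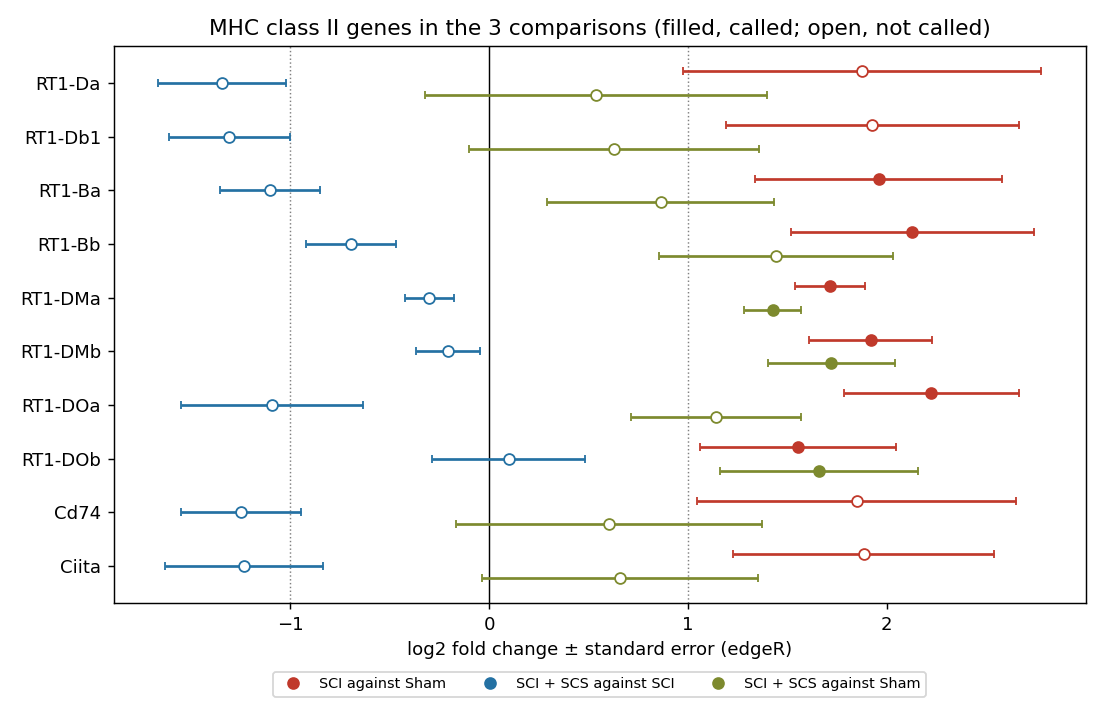
Log2 fold change (x axis) of each member (y axis) in the 3 comparisons, with its standard error from edgeR. Filled points were called at |log2FC|>1 and an adjusted p under 0.05, and dotted lines mark a log2 fold change of 1 in either direction; the errors of RT1-Da, Cd74, RT1-Db1 and Ciita against Sham are the widest, and those of RT1-DMa are the narrowest.

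How the members differ after stimulation is asked by comparing SCI + SCS with SCI rats. This comparison shares the SCI libraries with the comparison above. By edgeR 0 of the 10 members were called, against 0.00566% of the 17663 genes tested (0% as lower). At an unadjusted p under 0.05, 8 members were lower in the SCI + SCS group, against 10.9% of all genes. With |log2FC|>1 as well there were 6, against 2.56%. Their libraries did not overlap with those of the SCI group, as held for 13.9% of all genes on the lower side. DESeq2, the tool that the study's methods name, called 5 of these 6 as lower (RT1-Da, RT1-Db1, RT1-Ba, Cd74 and Ciita), against 1.6% of the genes it tested. Limma on log2(FPKM + 1) called 0. The median log2FC of the members was -1.10, against -0.01 over all genes.

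The differences were uneven along the pathway. The chains of the class II molecule differed by a log2FC of -1.34 for RT1-Da (SE 0.32, edgeR adjusted p = 0.091), -1.31 for RT1-Db1 (SE 0.31, edgeR adjusted p = 0.089), -1.10 for RT1-Ba (SE 0.25, edgeR adjusted p = 0.0872) and -0.70 for RT1-Bb (SE 0.23, edgeR adjusted p = 0.133). Cd74 differed by -1.25 (SE 0.30, edgeR adjusted p = 0.0912) and Ciita by -1.23 (SE 0.40, edgeR adjusted p = 0.13). The DM pair differed by -0.30 for RT1-DMa (SE 0.12, edgeR adjusted p = 0.197) and -0.21 for RT1-DMb (SE 0.16, edgeR adjusted p = 0.472). RT1-DOa differed by -1.09 (SE 0.46, edgeR adjusted p = 0.205) and RT1-DOb by 0.10 (SE 0.39, edgeR adjusted p = 0.9). Without both SCI libraries that held muscle RNA, the log2FC was -1.89 for RT1-Da, -1.73 for Cd74 and -1.67 for Ciita, and that of RT1-DOb was -0.34, all uncalled.

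Between SCI + SCS and Sham rats, a comparison that asks what remained different in stimulated rats, 11.7% of the 17640 genes tested were called and 6.28% were called as higher. This comparison shares libraries with both of the others. Of the 10 members, 3 were called, all as higher, and DESeq2 called 4, the fourth being RT1-Bb. RT1-DMa rose by a log2FC of 1.43 (SE 0.14, edgeR adjusted p = 0.00338), RT1-DMb by 1.72 (edgeR adjusted p = 0.012) and RT1-DOb by 1.66 (edgeR adjusted p = 0.0447). RT1-Da, RT1-Db1, Cd74 and Ciita overlapped with Sham, with log2FC of 0.54 (SE 0.86), 0.63, 0.60 (SE 0.77) and 0.66. RT1-Ba, RT1-Bb and RT1-DOa lay above Sham without overlap but were not called, with log2FC of 0.86, 1.44 and 1.14. In all, 6 members did not overlap with Sham, as held for 27.2% of all genes on the higher side. The median log2FC of the members was 1, against 0.01 over all genes. Without Sham 2 only RT1-DMa was called, against 3.51% of all genes as higher.

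How the members kept their proportions was described with FPKM ratios within each library. The ratio of Cd74 to the sum of RT1-Da and RT1-Ba lay between 2.54 and 3.37 in all 9 libraries, although Cd74 itself ranged from 24.1 to 756 CPM. Its difference in mean log2 ratio was -0.13 for SCI against Sham (exact permutation test, two-sided, p = 0.4) and 0.01 for SCI + SCS against SCI (exact permutation test, p = 0.7). The ratio of the DO pair to the DM pair was between 0.00726 and 0.0158, so DO transcripts were always a small fraction of DM transcripts. It differed by a log2 of 0.41 for SCI against Sham (exact permutation test, p = 0.3) and -0.40 for SCI + SCS against SCI (exact permutation test, p = 0.2). On CPM these differences were 0.027 (exact permutation test, p = 0.8) and -0.088 (exact permutation test, p = 0.9). FPKM of RT1-DOb did not track its counts, as stated above, so the FPKM differences are uncertain. With 3 libraries against 3 the smallest p the test allows is 0.1. That value was reached for RT1-Da to RT1-Ba in SCI against Sham, where the ratio was 2.81, 2.99 and 2.77 in the SCI libraries and 1.21, 2.25 and 2.58 in the Sham libraries (log2 difference 0.58, exact permutation test, p = 0.1). On CPM the difference was 0.35 (exact permutation test, p = 0.7).

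The ratio of RT1-Da to RT1-DMa was chosen after its values had been seen and is given without a test. It was 1.12, 2.07 and 1.14 in the SCI libraries, 0.634, 0.487 and 0.928 in the SCI + SCS libraries and 0.156, 1.10 and 1.76 in the Sham libraries. The SCI libraries were above the SCI + SCS libraries, and the Sham libraries spanned nearly the whole range.

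**Figure D3:**
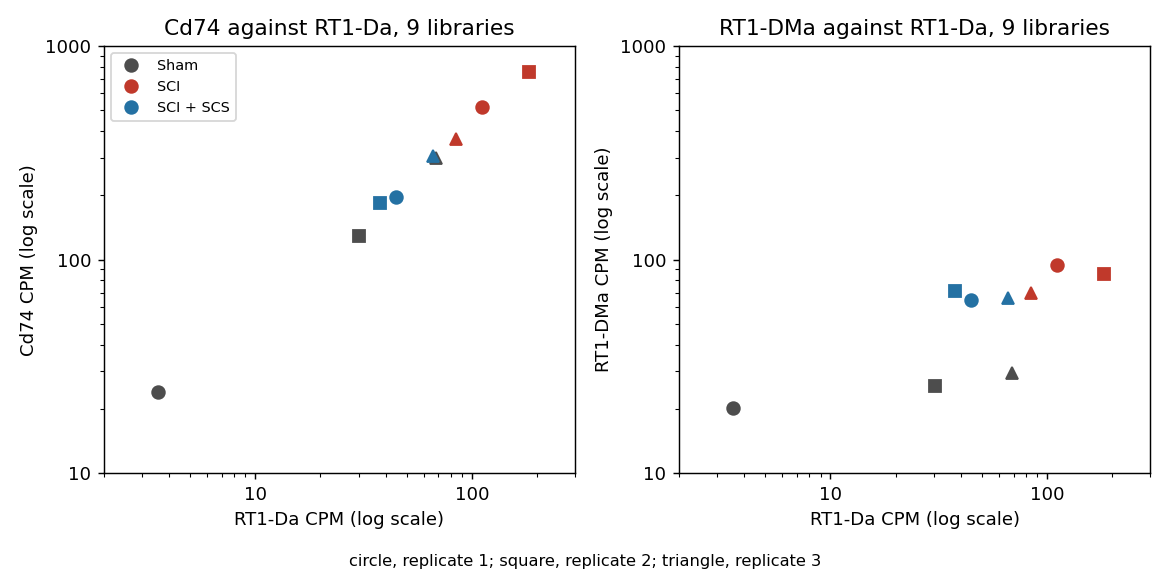
Cd74 (left) and RT1-DMa (right) against RT1-Da in the 9 libraries, in TMM-scaled CPM on log axes. Cd74 and RT1-Da lie along 1 line over all groups, whereas RT1-DMa is at 20.3 to 29.4 CPM in the Sham libraries and at 64.5 to 94.5 CPM in both injured groups. Levels of RT1-Da overlap between the Sham and SCI + SCS libraries only, and the SCI libraries lie above both.

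Across the 9 libraries, which share groups and differ in depth and tissue content, the correlation of log2 CPM was 0.998 for RT1-Da with Cd74, 0.978 with RT1-Db1 and 0.982 with RT1-Ba. It was 0.979 between RT1-DMa and RT1-DMb, and 0.76 between RT1-Da and RT1-DMa. Ciita was closest to RT1-Db1 (0.978) and Cd74 (0.951) and farthest from RT1-DOb (0.564), which was closest to RT1-DMb (0.916). The genes whose level over the 9 libraries was most like the mean of the members, among 14317 genes with a mean of at least 1 CPM, were Ifgga2l2 (r = 0.983), Top2a (0.982), Nlrc5 (0.981), Slc2a9 (0.980), Kif18b (0.976), Mst1 (0.974), C3ar1 (0.972), Ccnd1 (0.972), Atad2 (0.971) and Cytip (0.971). Nlrc5 is the transactivator of MHC class I genes and belongs to the same protein family as Ciita. C3ar1 is the receptor of complement fragment C3a, and Top2a, Kif18b and Atad2 are genes of proliferating cells.

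**Figure D4:**
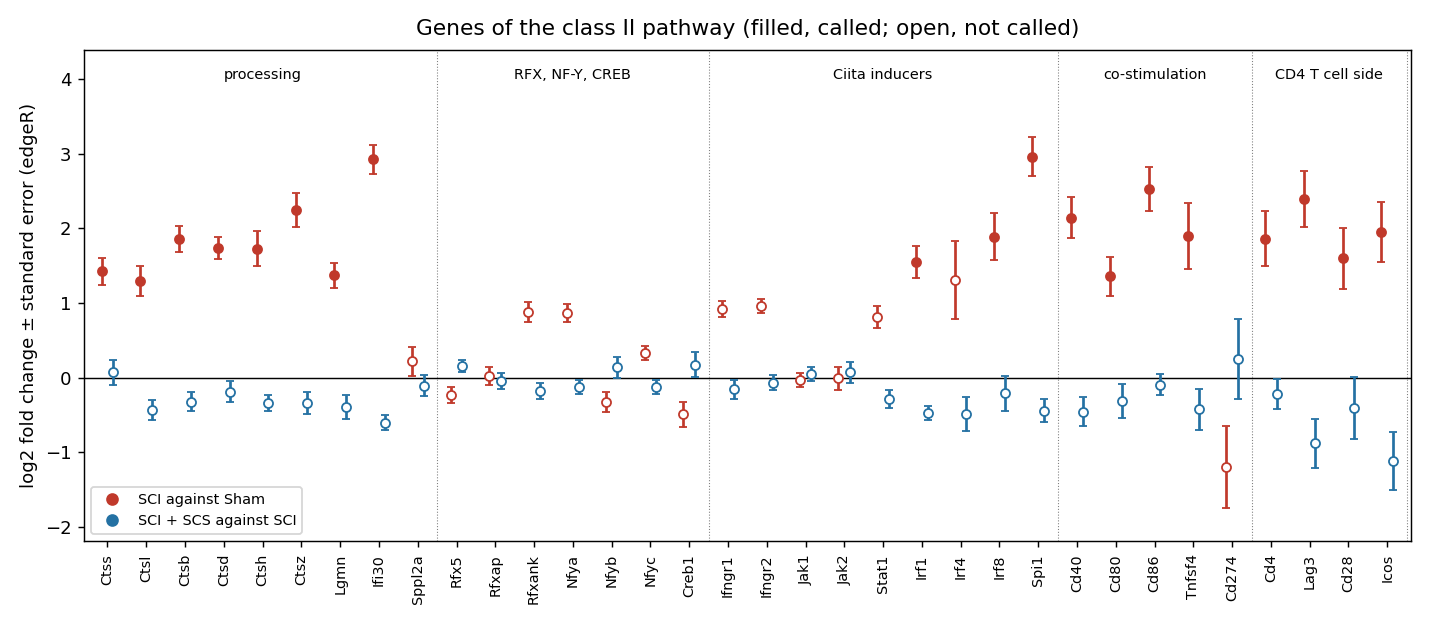
Log2 fold change (y axis) with its standard error from edgeR for 34 other genes of the class II pathway (x axis), grouped by role, for SCI against Sham and SCI + SCS against SCI. Filled points were called; called genes lie above 1 in SCI against Sham, and no gene was called in SCI + SCS against SCI.

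Other genes of the pathway were taken from 6 lists of 43 genes, of which 36 were tested in SCI against Sham. Of these, 19 were called and all 19 rose, against 13.4% of all genes called as higher. Among 9 genes of antigen processing 8 rose, including Ifi30, the thiol reductase that opens disulfide bonds of antigens (log2FC 2.93, edgeR adjusted p = 9.76e-04), Ctsz (log2FC 2.24, edgeR adjusted p = 0.0014) and Ctss, the cathepsin that trims the invariant chain (log2FC 1.43, edgeR adjusted p = 0.00209). Sppl2a, the protease that clears the last stub of Cd74, was not called (log2FC 0.22, edgeR adjusted p = 0.376). Of 9 tested inducers of Ciita, 3 rose, namely the transcription factors Spi1 (log2FC 2.96, edgeR adjusted p = 0.0012), Irf8 (log2FC 1.89, edgeR adjusted p = 0.0043) and Irf1 (log2FC 1.55, edgeR adjusted p = 0.00268). Of 5 tested costimulatory genes, 4 rose (Cd86, Cd40, Tnfsf4 and Cd80), and Cd274, the ligand of PD-1, had a log2FC of -1.20 (edgeR adjusted p = 0.11). All 4 tested genes of the CD4 T cell side rose, with log2FC of 1.86 for Cd4, 2.39 for Lag3, 1.95 for Icos and 1.60 for Cd28. Rat macrophages carry Cd4 too, so its level is not one of T cells alone. Cd4 was at 106 to 172 CPM in the SCI group and at 99.1 to 139 CPM in the SCI + SCS group, which overlapped, while the T cell marker Cd3e was at 1.69 to 2.38 CPM and at 0.156 to 0.642 CPM, without overlap. Of the 9 T cell markers, 7 were lower without overlap, as held for 13.9% of all genes. Cd8a, the one with the highest CPM, overlapped, at 10.8 to 14.5 CPM and at 6.34 to 11.3 CPM.

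Of the 7 genes of RFX, NF-Y and CREB, the proteins that bind the X and Y boxes printed above, 0 were called by edgeR in SCI against Sham, and 0 by DESeq2 or limma. At an unadjusted p under 0.05, 3 were higher and 2 lower, against 28.7% and 28.6% of all genes. Rfxank had a log2FC of 0.88 (edgeR adjusted p = 0.00322) and Nfya of 0.87 (edgeR adjusted p = 0.0025), both under the fold threshold, while Rfx5 had -0.24 and Creb1 -0.50. The 2 tested genes of class II turnover, Marchf1 (-0.28) and Cd83 (-0.26), were not called, and both had an unadjusted p above 0.05. Ifng, the interferon that induces Ciita, had 5 counts in SCI 2 and 0 in the other 8 libraries (0.0709 CPM in SCI 2) and was not tested.

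Between SCI + SCS and SCI rats, 0 of the 37 pathway genes tested by edgeR were called, and 10 were lower at an unadjusted p under 0.05, against 10.9% of all genes. DESeq2 and limma, which tested 41 and 36 pathway genes, called 0 of them. Ifi30 was at 188, 195 and 204 CPM in the SCI libraries and at 131, 139 and 114 CPM in the SCI + SCS libraries (log2FC -0.60, edgeR adjusted p = 0.0719). Irf1 was at 27.1, 27.5 and 29.8 CPM and at 21.6, 19.0 and 19.6 CPM (log2FC -0.48, edgeR adjusted p = 0.0774). The groups did not overlap for either gene. Icos had a log2FC of -1.12 (edgeR adjusted p = 0.148) and Lag3 of -0.88 (edgeR adjusted p = 0.161), whereas Ctss had 0.07 and Cd86 -0.09 with overlapping libraries. Against Sham, 15 of 36 tested pathway genes were called in the SCI + SCS group, all as higher, against 6.28% of all genes. Among them were Ifi30 (log2FC 2.33, edgeR adjusted p = 0.00315), Spi1 (log2FC 2.53, edgeR adjusted p = 0.00336) and Cd86 (log2FC 2.44, edgeR adjusted p = 0.0041).

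Summed levels of macrophage, dendritic cell and T cell markers differed between the groups in the direction of the members. Those of microglia markers overlapped between the injured groups. Among the dendritic cell markers, mean levels of Flt3 and Zbtb46 went the other way. The part of the macrophage, dendritic cell and T cell markers in the differences was not tested. The summed level of the 10 members was 71.4 to 494 CPM in the Sham group, 715 to 1300 CPM in the SCI group and 443 to 596 CPM in the SCI + SCS group. The 8 macrophage markers summed to 81.2 to 345 CPM, 2128 to 3349 CPM and 1568 to 1628 CPM in these groups, and 7 of the 8 were called as higher in SCI against Sham. The one with the highest CPM, Lyz2 (lysozyme), was at 51.1 to 257 CPM, 918 to 1555 CPM and 705 to 776 CPM. In SCI + SCS against SCI, 0 of the 8 macrophage markers were called by edgeR, and 6 were lower at an unadjusted p under 0.05. DESeq2 called 1 of them as lower and limma on FPKM 0. Of all genes, 13.4% were called as higher in SCI against Sham by edgeR. In SCI + SCS against SCI, 10.9% of all genes were lower at an unadjusted p under 0.05, and DESeq2 called 1.6% as lower. The 8 microglia markers summed to 368 to 510 CPM, 625 to 930 CPM and 722 to 942 CPM, with 1 of 7 tested called in SCI against Sham (Csf1r, log2FC 1.54). In SCI + SCS against SCI, 0 of the 7 microglia markers tested by edgeR were called, 0 by DESeq2 or limma, and at an unadjusted p under 0.05 there were 0 as well. Their median log2FC was 0.02, against -1.10 for the members.

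Per unit of macrophage marker level, the members were at 0.879 to 1.43 in the Sham group, at 0.238 to 0.458 in the SCI group and at 0.279 to 0.375 in the SCI + SCS group, so the injured groups overlapped on this ratio. Per unit of microglia marker level they were at 0.194, 0.599 and 0.968 in the Sham libraries, at 1.05 to 1.55 in the SCI group and at 0.482 to 0.797 in the SCI + SCS group, where the injured groups did not overlap. The lowest ratio of all was that of Sham 1 to the microglia markers.

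The 9 T cell markers summed to 4.18 to 5.27 CPM, 27.3 to 30.5 CPM and 10.3 to 18.6 CPM in Sham, SCI and SCI + SCS rats, without overlap. In SCI against Sham 5 of 9 were called as higher, and in SCI + SCS against SCI 0 were called by edgeR and 7 were lower at an unadjusted p under 0.05. DESeq2 called 6 of the T cell markers as lower in that comparison, and limma on FPKM 0. The shares of all genes were 13.4% called as higher in SCI against Sham, 10.9% lower at an unadjusted p and 1.6% called as lower by DESeq2. The 8 dendritic cell markers summed to 28.2 to 36.8 CPM, 53.2 to 70.1 CPM and 36.3 to 44.6 CPM. In SCI against Sham, 6 of these 8 were called as higher and 1 as lower, against 13.4% and 13.6% of all genes. Among the defining genes, Itgax was at 0.204 to 0.915 CPM in the Sham group and at 4.82 to 9.49 CPM in the SCI group, while Flt3, the gene that was lower, was at 13.1 to 22.3 CPM and at 5.51 to 9.35 CPM. Both were named after their values had been seen. In SCI + SCS against SCI, 0 dendritic cell markers were called by edgeR, 3 were lower at an unadjusted p under 0.05, and DESeq2 called 2 as lower. The shares of all genes given for the T cell markers in that comparison apply here too. The 8 B cell markers summed to 0.613 to 1.12 CPM, 2.80 to 3.36 CPM and 2.10 to 3.04 CPM, with Ms4a1 at 0 in 2 Sham libraries and in 1 SCI library. Ccr7 was at 0 in 2 Sham libraries, Cd3d in 1 Sham and 2 SCI + SCS libraries, and the microglia gene Siglech in 8 of the 9 libraries. Neuron markers moved the other way, at 3901 to 8548 CPM, 548 to 1858 CPM and 1703 to 2907 CPM. SCI 2, the SCI library with few counts on muscle markers, had the highest Cd74 and RT1-Da. Adipocyte markers were at 86.9 to 115 CPM in the SCI group, 26.6 to 42.8 CPM in the SCI + SCS group and 2.83 to 8.88 CPM in the Sham group, with Lep at 0 in all 9 libraries.

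**Figure D5:**
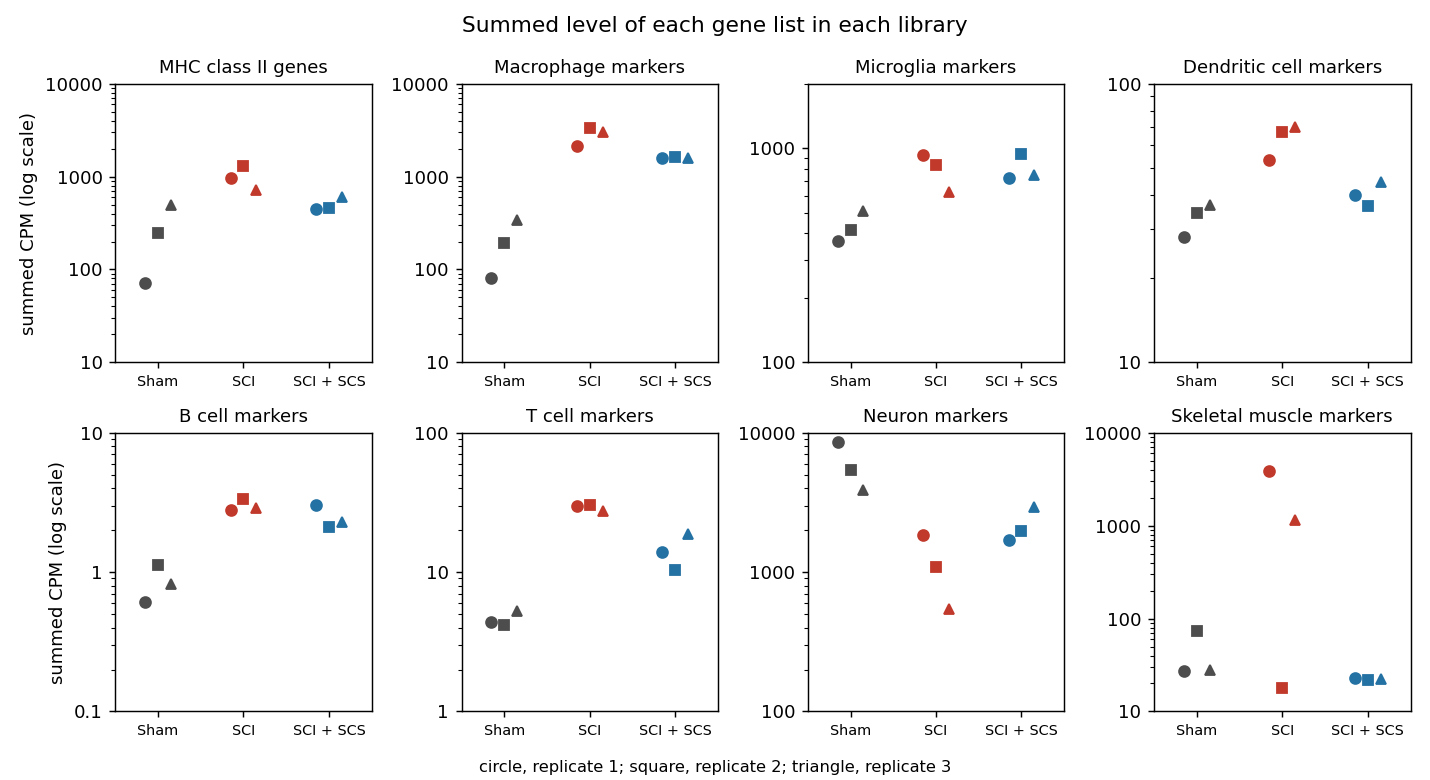
Summed level of the members and of 7 lists of marker genes in each library, in TMM-scaled CPM on log axes with their own ranges. Macrophage and T cell markers are higher in the SCI libraries than in the SCI + SCS libraries, as are the members, whereas the microglia markers of the injured groups overlap.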

How the data were processed

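RNA of the T9-T11 cord was enriched with oligo(dT) beads by the authors, and the submitters' processing notes name fastp 0.23.2, HISAT2 2.2.1 and the build mRatBN7.2. The counting program and its use of strand are not given in the sources used here. The authors deposited raw counts per gene without normalization, and a table of FPKM, which divides counts by gene length and library total. Samples were grouped by the condition in their labels, which name a single batch. The labels do not name the animals, and the group sizes in the study's methods leave 3 rats a group for sequencing.

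The counts of the 6 libraries compared were fitted by edgeR 4.0.16 under R 4.3.3 (TMM scaling, its default filter on low counts, no covariates), and all genes were tested by quasi-likelihood with Benjamini-Hochberg adjustment. A gene was called at |log2FC|>1 and an adjusted p under 0.05. All 10 members passed the filter in each comparison. The standard error was the log2FC divided by the square root of F. DESeq2 1.42.0, limma 3.58.1 on log2(FPKM + 1) and on log2(FPKM + 0.1), a replicate block, other filters and leaving out single libraries were alternatives. Limma used genes whose mean FPKM reached 0.1, and fold changes on that scale understate changes of low genes. FPKM ratios were compared by exact permutation over 20 splits. The script was tested on simulated data.

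The members, the gene lists and the markers were chosen with earlier results of these data known. The text names the members, genes of the 6 pathway lists, the other class II loci RT1-Db2 and RT1-Hb-ps1, the 2 genes of a marker list highest in CPM, the 10 genes most like the members and marker genes at 0. Ifi30, the other genes of the pathway, Cd3e, Itgax, Flt3, Zbtb46, Plin1, Adipoq and Cidec were named after their values had been seen. Promoters were taken from RefSeq (GRCr8). The floor covers counting error only. Ranges of levels run from the lowest to the highest library of those named.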

Additional observations from a re-analysis of the deposited data

How the results depend on the processing

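Over the alternatives, the log2FC of the members in SCI against Sham kept its direction in 200 of 200 repeats, with 20 losing and 17 gaining a call. Some repeats changed only the threshold on the same fit. Each SCI library was also above each Sham library for all 10 members, so the direction was little tested in SCI against Sham. Members called there ranged from 3 to 8 when 1 library was left out (3 without SCI replicate 1 and 3 without SCI replicate 3) and numbered 1 without both SCI libraries that held muscle RNA, a choice made after seeing the data. Pathway genes called fell from 19 to 7 there. In that fit 1 SCI library was assumed to vary like the other group. For SCI + SCS against SCI, 0 members were called with any single library left out and 5 by DESeq2. At an unadjusted p under 0.05 with |log2FC|>1 there were 6 members and 1 pathway gene. Without the fold threshold, 8 members and 10 pathway genes were lower at that p. Of all genes, 1.6% were called as lower by DESeq2, and 2.56% were lower at an unadjusted p with |log2FC|>1. RT1-DOb changed sign there, with log2FC of -0.089 and -0.22 on log2(FPKM + 1) and log2(FPKM + 0.1), -0.29 to 0.36 with 1 library left out and -0.34 without the muscle libraries. For SCI + SCS against Sham, members called numbered 1 to 2 with 1 library left out (1 without Sham replicate 2) and 5 at an unadjusted p, and pathway genes called numbered 23 without a fold threshold. Of all genes, 7.89% were higher at an unadjusted p with |log2FC|>1, and 32.4% were called in either direction without a fold threshold. The replicate numbers did not pair the samples (mean correlation of same-numbered libraries 0.13, -0.12 and -0.21 in the 3 comparisons, with every library best matched to its own number in 0 of them). With the replicate block, 5, 0 and 1 members were called, and 8 pathway genes in SCI + SCS against Sham. In the same order of comparisons, 13%, 0% and 2.49% of all genes were called as higher with the block. RT1-Bb in SCI against Sham (edgeR adjusted p = 0.0534) and RT1-DMb and RT1-DOb in SCI + SCS against Sham (edgeR adjusted p = 0.0513 and 0.0671) lost their call under the block. With 1 library left out, log2 differences of FPKM ratios that changed sign for SCI + SCS against SCI ranged from -0.25 to 0.39 (RT1-Da to RT1-Db1), -0.18 to 0.70 (RT1-Ba to RT1-Bb), -0.14 to 0.069 (RT1-DMa to RT1-DMb) and -0.020 to 0.056 (Cd74 to RT1-Da and RT1-Ba). Those for SCI + SCS against Sham ranged from -0.11 to 0.16 (DO to DM) and -0.027 to 0.52 (RT1-Da to RT1-Ba). With CPM in place of FPKM, RT1-Ba to RT1-Bb was -0.38 in SCI + SCS against SCI. In SCI + SCS against Sham, DO to DM was -0.061 with CPM and -0.29 with 0.1 FPKM added. The causes of these changes were not tested.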

Other observations

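RT1-Db2, a second beta chain locus beside RT1-Db1, varied little where RT1-Db1 varied most. It was at 4.06, 3.53 and 3.95 CPM in the Sham libraries, where RT1-Db1 ranged 9.43-fold. In the SCI libraries it was at 8.06, 5.49 and 4.73 CPM and in the SCI + SCS libraries at 4.45, 4.55 and 5.15 CPM. The log2FC was 0.65 in SCI against Sham (SE 0.24, edgeR adjusted p = 0.0612) and -0.36 in SCI + SCS against SCI (SE 0.23, edgeR adjusted p = 0.374). The pseudogene RT1-Hb-ps1 had 21 counts in SCI + SCS 2, 5 in Sham 2, 3 in SCI + SCS 1 and 0 in the other libraries. RT1 loci are polymorphic in outbred rats and similar to each other, and how reads shared between RT1-Db1 and RT1-Db2 were assigned is not given in the sources used here.

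The 2 deposited tables disagreed for several RT1 genes. For 93.83% of 12910 well-counted genes, the FPKM obtained per CPM differed by less than 1.2-fold between libraries. For RT1-Da it was 0.543 in Sham 3 and 0.654 to 0.679 in the other libraries, while Cd74, RT1-DMa, RT1-DMb, RT1-DOa and Ciita differed by at most 1.08-fold. The ratio of RT1-Ba to RT1-Bb counts, read between libraries and not as a difference in level between the genes, was 1.99 in SCI 2, 1.49 in Sham 3 and 1.23 in Sham 1, and between 0.731 and 0.913 in the other 6 libraries.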
